A study of Mus musculus with 8 samples.

Results

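Cells of the injured mouse liver that were sorted for a high F4/80 signal and turned over a fluorogenic substrate of β-galactosidase (b-gal+) were compared with F4/80high cells that did not (b-gal-). The libraries were chosen by their sort label: 2 of b-gal+ F4/80high and 2 of b-gal- F4/80high cells, which are 4 of the 8 libraries in all. The other 4 libraries, 2 of EpCAM-positive cells and 2 of hepatocytes, entered the scaling, the filter on low values and the estimate of spread. All 8 came from Lgr5-LacZ transgenic mice on a mixed C57BL/6 and CBA background, which carry a bacterial β-galactosidase reporter for the Wnt pathway receptor Lgr5. The mice had a single intraperitoneal dose of carbon tetrachloride (CCl4, 1 µl per g in rapeseed oil), a toxin of pericentral hepatocytes, and the livers were taken 6 days later. Both groups thus share the reporter, the injury and the time, and no uninjured liver was analysed here. Ages are 10 to 12 weeks by the sample labels and 7 to 12 weeks by the series text. Each library pools the cells of 2 mice. The labels do not say whether libraries with the same replicate number share mice, so the p-values measure the spread between pools within all 4 groups.

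Kupffer cells are the resident macrophages of the liver sinusoid. They take up dying red cells, bacteria and lipoproteins from the blood, and they depend on signals of the neighbouring sinusoidal endothelial and stellate cells for their identity. Liver sinusoidal endothelium is a fenestrated, scavenging endothelium that lies against the Kupffer cells. After injury, monocytes enter from the blood and become macrophages that carry less of the resident program. β-Galactosidase activity can come from the transgene or from the lysosomal enzyme of the mouse, which macrophages hold in quantity.

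The recovered reads ranged from 16948568 to 23066796 in the 4 libraries, with 15448 to 15703 genes detected, and 3 reads correspond to 0.130 to 0.177 counts per 1000000 (CPM). Spearman's rho between replicates was 0.983 for the b-gal+ and 0.980 for the b-gal- gate, over genes, which are not independent replicates. It was 0.926 for the EpCAM-positive cells and 0.985 for the hepatocytes. The spread in each test comes from all 4 groups, so a missing call can also reflect spread within these other groups. Levels below are CPM scaled with the trimmed mean of M values (TMM), given for replicates 1 and 2 in that order. Differences are fitted log2 values of b-gal+ minus b-gal-, and a call is an adjusted p under 0.05 in limma with the Benjamini-Hochberg method over 14404 genes. On simulated data for this comparison 6% of 2-fold changes were recovered, 78% of 4-fold and 94% of 8-fold ones, so that a missing call says little about small differences. As a check on the sort, LacZ had 0 and 4 reads in b-gal+ and 1 and 0 reads in the b-gal- gate, and Lgr5 0 and 5 against 1 and 1 reads, all near the floor of 3 reads.

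The sequences before the transcription start are shown for 4 of the 5 genes that mark the gates, Clec4f, Timd4, Cd163 and Kdr, and for the macrophage gene Cd68. They come from RefSeq on GRCm38.p6 and hold the 250 bases before the RefSeq start, 5′ to 3′ on the strand of the gene. By the GENCODE positions given further on, the stretches of Clec4f and Kdr end inside the gene. For Kdr these are only a few bases, and for Clec4f they include the last marked GGAA. Capitals mark GGAA or its complement TTCC, the core that factors of the ETS family bind. The family includes Spi1 (PU.1) of macrophages and Erg and Ets1 of endothelium, whose levels are given further on.
Clec4f, chr6:83656117-83656366, minus strand: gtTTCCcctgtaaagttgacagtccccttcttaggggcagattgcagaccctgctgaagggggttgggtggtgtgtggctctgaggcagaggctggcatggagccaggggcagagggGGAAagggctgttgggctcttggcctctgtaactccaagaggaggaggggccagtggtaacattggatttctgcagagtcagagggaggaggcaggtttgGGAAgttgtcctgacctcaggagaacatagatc
Timd4, chr11:46810549-46810798, plus strand: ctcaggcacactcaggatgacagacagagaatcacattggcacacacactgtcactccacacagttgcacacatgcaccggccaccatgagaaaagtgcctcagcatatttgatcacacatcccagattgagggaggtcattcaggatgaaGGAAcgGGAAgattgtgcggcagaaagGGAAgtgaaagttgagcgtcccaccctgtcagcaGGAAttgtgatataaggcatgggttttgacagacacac
Cd163, chr6:124304401-124304650, plus strand: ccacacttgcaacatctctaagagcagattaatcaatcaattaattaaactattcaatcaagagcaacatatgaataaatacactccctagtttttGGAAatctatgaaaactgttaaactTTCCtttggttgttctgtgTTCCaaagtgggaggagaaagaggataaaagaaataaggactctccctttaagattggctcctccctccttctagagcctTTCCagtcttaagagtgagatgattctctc
Kdr, chr5:75978456-75978705, minus strand: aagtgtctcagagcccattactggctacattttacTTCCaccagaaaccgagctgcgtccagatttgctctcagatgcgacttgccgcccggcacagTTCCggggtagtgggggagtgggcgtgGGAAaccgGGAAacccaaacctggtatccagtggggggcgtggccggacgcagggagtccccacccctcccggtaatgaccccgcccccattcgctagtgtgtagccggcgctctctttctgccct
Cd68, chr11:69666171-69666420, minus strand: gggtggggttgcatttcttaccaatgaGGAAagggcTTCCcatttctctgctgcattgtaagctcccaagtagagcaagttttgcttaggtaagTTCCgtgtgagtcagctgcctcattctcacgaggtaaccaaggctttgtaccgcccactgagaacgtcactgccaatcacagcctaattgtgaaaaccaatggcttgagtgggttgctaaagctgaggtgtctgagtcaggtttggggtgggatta
GGAA occurred on either strand 3 times before Clec4f and Cd68 and 4 times before Timd4, Cd163 and Kdr, and 93.2% of 10956 promoters of tested genes hold it, so the core alone does not set these promoters apart. The longer motif GAGGAA, a form preferred by PU.1 that contains GGAA, occurred on either strand in none of the first 4 and once before Cd68. It occurred in 23.0% of the promoters of tested genes, in 5 of 19 matched promoters of the Kupffer cell list, in 2 of 11 of the sinusoidal endothelial list and in 6 of 12 of the pan-myeloid list. Among the 20 called genes at each end, described further on, it occurred in 3 of 15 matched promoters of the highest (20%). Of the lowest it occurred in 6 of 13 (46.2%). Whether its presence follows the division between the gates was not tested, and these promoters are few. Cd68 was printed after these matches were seen. A match is a run of letters, not a measured site.

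Across all genes the gates were far apart. Of 14404 tested genes 1491 were higher in the b-gal+ gate (10.4%) and 1867 lower (13%), and 1066 and 1521 of these by at least 2-fold. The levels of the 2 gates did not overlap for 69% of the tested genes, and the median difference was -0.02. Under the deposited scaling the split was 1111 higher and 2304 lower, and the median moved to -0.16. Leaving out 1 library cut the calls most: 609 and 1253 genes were called higher and lower without b-gal+ replicate 1, 449 and 908 without b-gal+ replicate 2, 874 and 1291 without b-gal- replicate 1, and 368 and 921 without b-gal- replicate 2. In either direction these are 12.4%, 9.1%, 14.5% and 8.62% of the genes tested. Counts of list members are therefore also given without these libraries, in this order. Counts of the main fit are read against 10.4% of all tested genes called higher and 13% called lower. Counts without a library belong beside the smaller shares of that same fit and not beside 10.4% and 13%.

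**Figure D1:**
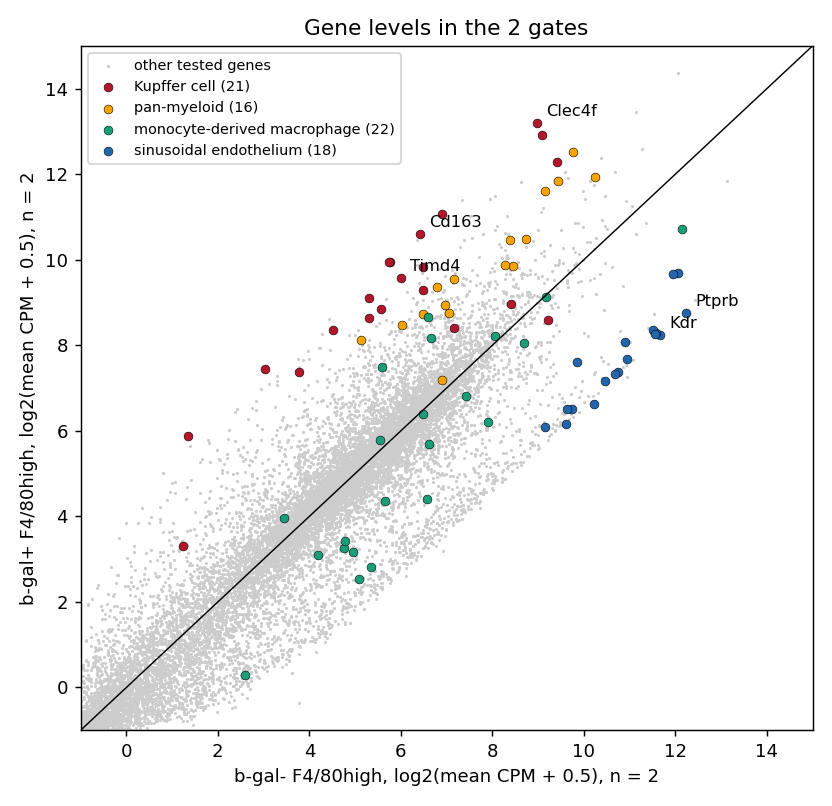
Mean level of each tested gene in b-gal+ (vertical axis) against b-gal- F4/80high cells (horizontal axis), as log2(mean CPM + 0.5), n = 2 libraries each; the line marks equal levels. The 21 tested Kupffer cell genes lie above the line except Cd38, and the 18 sinusoidal endothelial genes form a band below it with a median difference of -3.26.

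The 5 marker genes put Kupffer cell transcripts in the b-gal+ gate and endothelial transcripts in the b-gal- gate. Clec4f (chromosome 6, 83644542 to 83656187, GRCm38), a lectin of mouse Kupffer cells, stood at 8530.1 and 10238 CPM in the b-gal+ gate and 436 and 566 CPM in the b-gal- gate. Timd4 (chromosome 11, 46810800 to 46844332), which lets long-lived resident macrophages bind phosphatidylserine, stood at 745 and 784 against 63.7 and 63.7 CPM. Cd163 (chromosome 6, 124304656 to 124330527), the receptor for haemoglobin bound to haptoglobin, stood at 1873 and 1237 against 102 and 67.4 CPM. For these 3 genes both b-gal+ libraries were above both b-gal- libraries by more than 10-fold. Kdr (chromosome 5, 75932827 to 75978458), the main endothelial receptor for VEGF, stood at 365 and 238 CPM in the b-gal+ gate and 3079 and 3421 CPM in the b-gal- gate. Ptprb (chromosome 10, 116275523 to 116389535), the endothelial phosphatase that restrains Tie2 signalling, stood at 474 and 388 against 4265 and 5442 CPM. The fitted differences were 4.23 ± 0.79 (SE) for Clec4f, 3.57 ± 0.61 for Timd4 and 4.19 ± 0.66 for Cd163, with adjusted p between 0.0054 and 0.011. They were -3.46 ± 0.48 for Kdr (adjusted p = 0.0034) and -3.49 ± 0.50 for Ptprb (adjusted p = 0.0039). Clec4f was no longer called once any 1 of the 4 libraries was left out (p up to 0.0679 after adjustment). Timd4 was no longer called once b-gal+ replicate 2 was left out (p up to 0.0515 after adjustment).

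The b-gal- libraries held less of the transcript behind the F4/80 sort. Adgre1, the gene of F4/80 itself, stood at 1731 and 1361 CPM in the b-gal+ gate and 311 and 134 CPM in the b-gal- gate, without overlap, and its difference of 2.91 missed the threshold (adjusted p = 0.073). The summed level of the 21 Kupffer cell genes was 35660 and 31326 CPM in the b-gal+ gate and 3543 and 3508 CPM in the b-gal- gate, so that the b-gal- mean was 10.5% of the b-gal+ mean. The summed level of 18 sinusoidal endothelial genes was 5376 and 4370 CPM in the b-gal+ gate and 35469 and 42713 CPM in the b-gal- gate, so that the b-gal+ mean was 12.5% of the b-gal- mean. For these 2 lists the lower gate thus stood at about the same small share of the higher gate. The share depended on the list: for the summed pan-myeloid genes the b-gal- mean was 22.5% of the b-gal+ mean. The name b-gal- F4/80high is used below for a sort gate and not for a macrophage type. In these bulk libraries fewer cells of a type and less RNA per cell cannot be told apart. Nor can a transcript of a macrophage be told from that of an endothelial cell caught in the same gate.

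**Figure D2:**
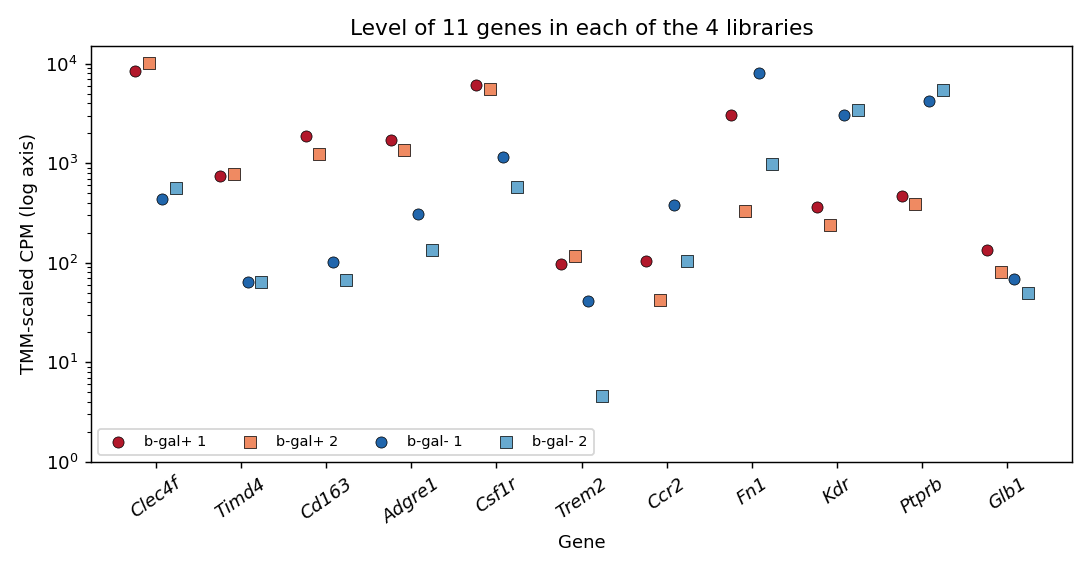
Level of 11 genes in each of the 4 libraries, in TMM-scaled CPM on a log axis; each point is 1 library pooled from 2 mice. Clec4f, Timd4, Cd163, Adgre1 and Csf1r are high in both b-gal+ libraries, Kdr and Ptprb in both b-gal- libraries, and Fn1, Ccr2 and Trem2 differ between the 2 b-gal- libraries.

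Resident Kupffer cell genes rose nearly throughout the list. Of 21 tested members 20 were called higher, against 10.4% of all tested genes, none was called lower, and the median difference was 3.67. The count was 9, 9, 13 and 9 without the 4 libraries in turn. The scavenger receptor Marco stood at 1486 and 473 against 69.3 and 38.4 CPM, and the C3b receptor Vsig4, which clears opsonised bacteria from the blood, at 2176 and 2142 against 112 and 127 CPM. Cd5l, a secreted inhibitor of macrophage apoptosis, reached 9257 and 6262 CPM in the b-gal+ gate and 653 and 431 CPM in the b-gal- gate. The lectin Cd209f stood at 88.8 and 28.8 against 2.65 and 1.47 CPM and the collagen-processing enhancer Pcolce2 at 185 and 164 against 7.37 and 7.88 CPM. Slc40a1, the iron exporter ferroportin, stood at 5457 and 4547 against 735 and 629 CPM, and Il18bp, a decoy that binds interleukin 18, at 418 and 372 against 38.1 and 40.3 CPM. In each of these genes the gates did not overlap, although Marco and Cd209f were about 3-fold apart between the b-gal+ libraries. Marco was no longer called once b-gal+ replicate 1 or b-gal- replicate 2 was left out (p up to 0.0839 after adjustment). Vsig4 was no longer called once either b-gal+ replicate or b-gal- replicate 2 was left out (p up to 0.0643 after adjustment). Cd5l was no longer called once any 1 of the 4 libraries was left out (p up to 0.207 after adjustment). Calls also ended with edgeR for Cd5l (0.0647), without the filter on low values for Cd5l (0.0619) and with the deposited scaling for Cd5l (0.0528).

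A few members of the Kupffer cell list differed little. Cd38, an ectoenzyme that degrades NAD, stood at 379.5 and 396 CPM in the b-gal+ gate and 468 and 719 CPM in the b-gal- gate (difference -0.58, adjusted p = 0.25). Id3, an inhibitor of helix-loop-helix factors, rose by 0.55, from 311 and 371 to 512 and 481 CPM. Clec1b, the receptor for podoplanin, rose by 1.25, from 127 and 158 to 324 and 349.6 CPM. These 3 genes, named after their values were seen, were the members with the smallest differences. Id3 was no longer called once any 1 of the 4 libraries was left out (p up to 0.240 after adjustment). With other settings, calls ended with edgeR for Id3 (0.0959), with the deposited scaling for Id3 (0.128) and in a fit of the 4 libraries alone for Id3 (0.0787).

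Genes that myeloid cells share were called higher in part, and these calls depended on which libraries were kept. Of 16 tested pan-myeloid genes 9 were called higher, against 10.4% of all tested genes, and none lower, with a median difference of 2.28, and the count was 0, 0, 8 and 0 without the 4 libraries in turn. The receptor for colony-stimulating factor 1, Csf1r, stood at 6142 and 5537 CPM in the b-gal+ gate and 1143 and 583 CPM in the b-gal- gate. Its partner in the myeloid program, the transcription factor Spi1 (PU.1), stood at 432 and 420.0 against 124 and 53.7 CPM, and the lysosomal glycoprotein Cd68 at 710.0 and 614 against 153 and 68.3 CPM. The calcium-binding protein Aif1 stood at 261 and 299 against 42.2 and 27 CPM. Lyz2, the lysozyme of macrophages and neutrophils, stood at 3378 and 4454 against 1956 and 483 CPM and was not called (adjusted p = 0.17). In all of these 5 genes b-gal- replicate 1 was above b-gal- replicate 2, while the b-gal+ libraries lay close together. Csf1r, Spi1, Cd68 and Aif1 were no longer called once either b-gal+ replicate or b-gal- replicate 2 was left out (p up to 0.228 after adjustment). Further calls ended with edgeR for Spi1 (0.0611) and without the filter on low values for Spi1 (0.0539).

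Levels were also set against the mean of the shared myeloid genes in the same library. The mean log2 level of the 16 pan-myeloid genes was 9.86 and 9.85 in b-gal+ and 8.25 and 7.14 in the b-gal- gate, a difference of 2.16 or 4.47-fold. Of the 21 Kupffer cell genes 15 had a fitted difference above 3.03, the highest among the pan-myeloid genes, against 0.715% of all tested genes. Relative to the pan-myeloid mean, 17 of 21 Kupffer cell genes were higher in both b-gal+ than in both b-gal- libraries, against 1.37% of all tested genes, with a median relative difference of 1.51. Clec4f stood at 3.20 and 3.47 in b-gal+ and 0.52 and 2.01 in the b-gal- gate on this log2 scale, and Cd163 at 1.01 and 0.42 against -1.57 and -1.05. These relative levels are descriptions without a test, since one offset per library moves every gene together. They also rest on the choice of the 16 genes: monocytes and neutrophils express them too, and they were 2.17-fold higher in b-gal- replicate 1 than in replicate 2. The fitted differences of the 16 genes ran from 0.33 to 3.03. Ptprc, a member, also stood at 698 and 221 CPM in the EpCAM-positive libraries. What other cell types add to these genes was not tested, so the scale is not a measured myeloid share.

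**Figure D3:**
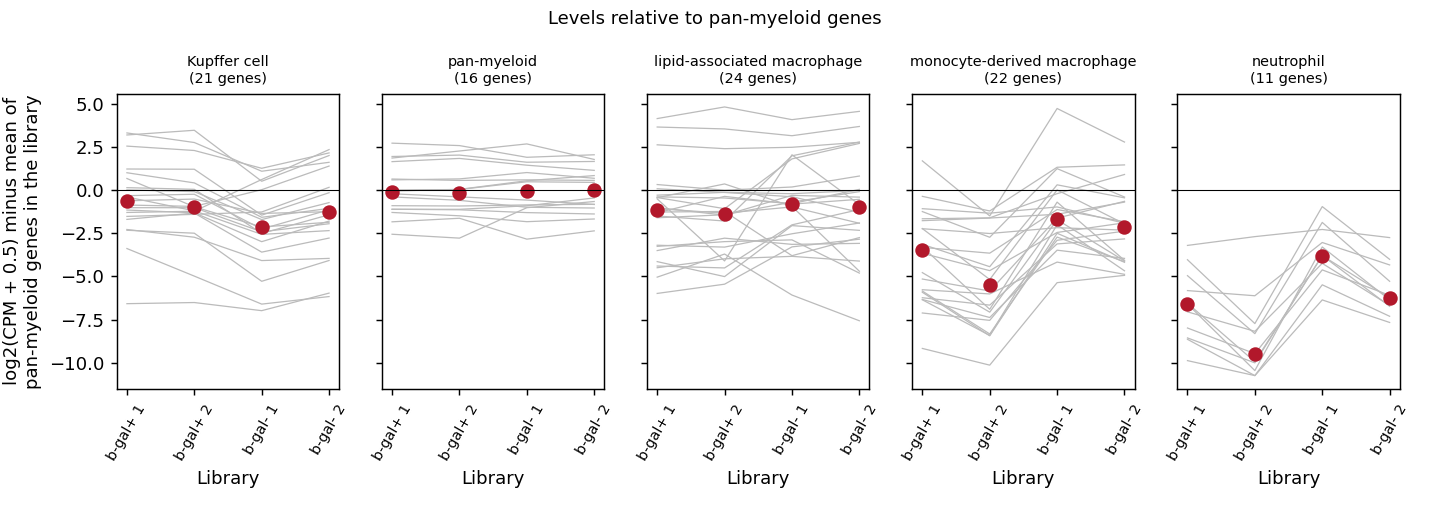
Log2 level of list members minus the mean log2 level of 16 pan-myeloid genes in the same library, for 5 lists; grey lines are genes, red points are list medians, and 0 is the pan-myeloid mean. Kupffer cell genes are lower in both b-gal- libraries, lipid-associated genes change little in their median, and monocyte-derived and neutrophil genes lie lower in b-gal+, as do 94.3% of all tested genes, and their medians are higher in replicate 1 than in replicate 2 of each gate.

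Genes of monocyte-derived macrophages were called about as often as any other genes. Of 22 tested members 2 were called higher and 3 lower, against 10.4% and 13% of all tested genes, with a median difference of -0.71. Without the 4 libraries in turn 1, 1, 2 and 1 were higher and 2, 1, 2 and 2 lower. Ccr2, the chemokine receptor that brings monocytes out of the marrow, stood at 105 and 42.3 CPM in the b-gal+ gate and 378 and 103 CPM in the b-gal- gate, which overlap (adjusted p = 0.27). Fibronectin, Fn1, stood at 3017 and 329 against 8115 and 972 CPM (adjusted p = 0.51), and the integrin chain Itgam at 393 and 139 against 725 and 107 CPM (adjusted p = 0.92). In each of these genes replicate 1 was above replicate 2 in both gates. The annexin partner S100a10 fell by 2.20, from 99 and 89.6 to 25.8 and 15.6 CPM, and the peptidase Ace by 2.53, from 40.3 and 26.7 to 6.22 and 4.46 CPM. Gngt2, a G protein subunit, rose from 116 and 86.8 to 273 and 301 CPM, and the selenoprotein Msrb1 from 67.2 and 27.8 to 197 and 162 CPM. Relative to the pan-myeloid mean the list had a median difference of -2.87, and 19 of 22 members were lower in both b-gal+ libraries, as were 94.3% of all tested genes. Ccr2 and Fn1 were named as check and example genes after their values were known. Ace was no longer called once b-gal+ replicate 2 was left out (p up to 0.0623 after adjustment). Msrb1 was no longer called once either b-gal+ replicate or b-gal- replicate 2 was left out (p up to 0.112 after adjustment).

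Lipid-associated macrophage genes, which macrophages switch on when they load lipid, split. Of 24 tested members 10 were called higher and 1 lower, with a median of 2.02, and 4, 2, 10 and 4 were higher without the 4 libraries in turn. The apolipoprotein Apoc1 stood at 386 and 393 against 21.5 and 20.5 CPM and lipoprotein lipase, Lpl, at 984 and 843 against 234 and 57.6 CPM. Apoe, the most abundant transcript per kilobase of the b-gal+ gate, stood at 16485 and 26123 against 5182 and 3335 CPM and was not called (adjusted p = 0.22). Trem2 stood at 96.9 and 117 against 41 and 4.55 CPM (adjusted p = 0.14) and the lysosomal glycoprotein Gpnmb at 688 and 1187 against 159 and 4.94 CPM (adjusted p = 0.12). For both, b-gal- replicate 1 held most of the b-gal- level. The osteopontin gene Spp1 stood at 655 and 53.5 against 1263 and 78.6 CPM and was high in replicate 1 of each gate. Cd36, a scavenger receptor of endothelium as well as of macrophages, fell by 1.87, from 1214 and 972 to 329.8 and 267 CPM. Lpl was no longer called once either b-gal+ replicate was left out (p up to 0.0681 after adjustment). Cd36 was no longer called once either b-gal- replicate or b-gal+ replicate 2 was left out (p up to 0.0859 after adjustment). Relative to the pan-myeloid mean the list had a median difference of -0.14. On this scale 4 members were higher and 8 lower in both b-gal+ libraries, against 1.37% and 94.3% of all tested genes.

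The 2 b-gal- libraries differed from each other in myeloid genes but not in Kupffer cell genes. The summed pan-myeloid level was 2.44-fold, the monocyte-derived level 5.15-fold and the neutrophil level 10.1-fold higher in b-gal- replicate 1 than in replicate 2, while the Kupffer cell sum was 1.01-fold. Fn1 alone held 8115 of the 11771 CPM of the monocyte-derived sum in b-gal- replicate 1. It also stood at 6084.5 and 5844.9 CPM in the hepatocyte libraries. The median ratio of the monocyte-derived members was 3.61-fold. Of the members, 10 of 16 pan-myeloid, 14 of 22 monocyte-derived, 11 of 11 neutrophil and 2 of 21 Kupffer cell genes were more than 2-fold higher in replicate 1, against 6.82% of all tested genes. Between the gates limma and edgeR called 0 of 11 neutrophil genes and DESeq2 1, and 1 had an unadjusted p under 0.05. Their leading genes were S100a9, a calcium-binding alarmin, at 56.5 and 3.86 against 158 and 8.27 CPM and Csf3r, the receptor for granulocyte colony-stimulating factor, at 101 and 143 against 62.6 and 20.5 CPM. T and NK cell genes went the other way: 13 of 15 were more than 2-fold higher in b-gal- replicate 2, against 6.17% of all tested genes. The granzyme gene Gzmb, for example, stood at 1.04 and 4.99 CPM.

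Some of these differences ran along the replicate number in both gates. Replicate 1 was above replicate 2 in both gates for 20 of 22 monocyte-derived genes, 10 of 11 neutrophil genes and 13 of 16 stellate cell and fibroblast genes, against 32.3% of all tested genes. Replicate 2 was above replicate 1 in both gates for 21 of 22 interferon response genes, 15 of 18 hepatocyte genes and 12 of 15 T and NK cell genes, against 30.5% of all tested genes. Albumin, Alb, the main secreted protein of hepatocytes, stood at 222 and 572 CPM in the b-gal+ gate and 138 and 335 CPM in the b-gal- gate, and the collagen gene Col3a1 at 261 and 18.3 and 330.3 and 123 CPM.

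**Figure D4:**
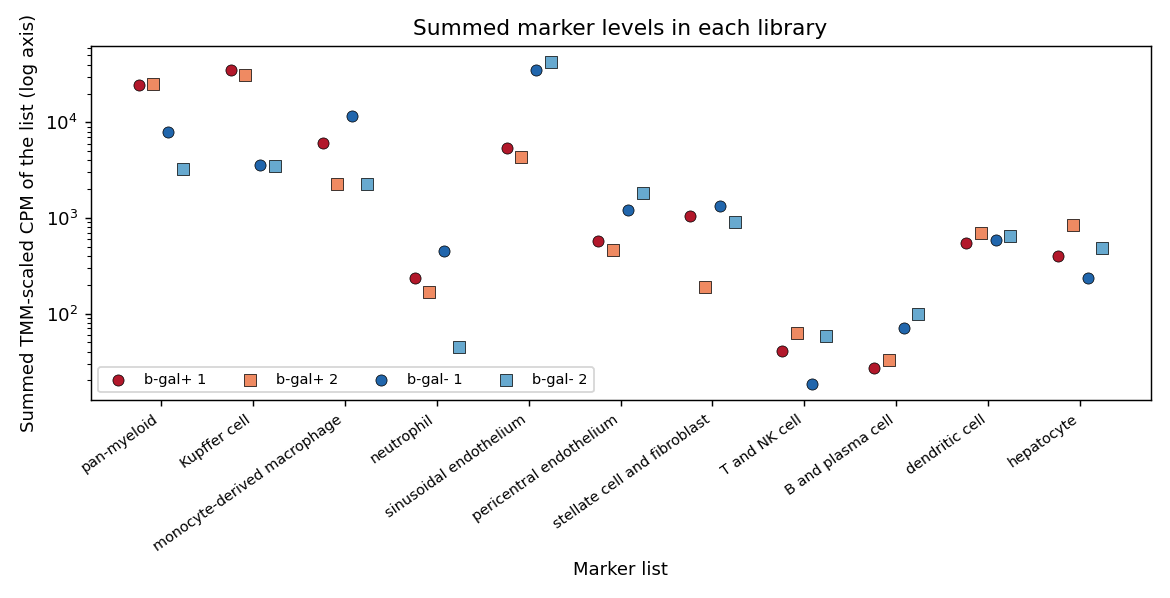
Summed TMM-scaled CPM of 11 marker lists in each of the 4 libraries, on a log axis; each point is 1 library. The Kupffer cell and pan-myeloid sums are highest in both b-gal+ libraries, the sinusoidal and pericentral endothelial sums in both b-gal- libraries, and the neutrophil, monocyte-derived and stellate cell sums are higher in replicate 1 than in replicate 2 of each gate.

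Sinusoidal endothelial genes were lower in the b-gal+ gate by nearly the same amount. All 18 tested members were called lower, against 13% of all tested genes, with a median difference of -3.26 and quartiles of -3.41 and -3.12. The count was 16, 15, 17 and 16 without the 4 libraries in turn. The scavenging lectin Clec4g stood at 1622 and 2326 CPM in the b-gal- gate and 214 and 194 CPM in the b-gal+ gate, and the secreted nuclease Dnase1l3 at 2616 and 3485 against 345 and 274 CPM. The lymphatic and sinusoidal VEGF receptor Flt4 stood at 1770.4 and 1644 against 219 and 115 CPM, the angiopoietin receptor Tek at 698 and 873 against 81.8 and 59.9 CPM, and coagulation factor F8, which the liver endothelium secretes, at 1134 and 1255 against 119 and 77.6 CPM. In each gene both b-gal- libraries were above both b-gal+ libraries, and b-gal+ replicate 1 was above b-gal+ replicate 2. Of the 18 members 15 had a difference between -3.7 and -2.8. The other 3 were Stab1 (-2.36), Stab2 (-2.29) and Pecam1 (-2.26), 2 scavenger receptors and an adhesion molecule that leukocytes also carry. Stab1 was no longer called once either b-gal+ replicate or b-gal- replicate 2 was left out (p up to 0.0895 after adjustment). Stab2 was no longer called once any 1 of the 4 libraries was left out (p up to 0.103 after adjustment).

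Endothelial genes of the central vein side, which faces the CCl4 injury, were also lower in the b-gal+ gate. Of 10 pericentral genes 7 were called lower, with a median of -2.83, and 3, 3, 7 and 3 without the 4 libraries in turn. Wnt2, a ligand that keeps the pericentral hepatocyte program, stood at 113 and 256 CPM in the b-gal- gate and 17.1 and 21.8 CPM in the b-gal+ gate, and Wnt9b at 20.8 and 60.2 against 2.77 and 5.95 CPM. Rspo3, a ligand of the Lgr receptors, stood at 14.1 and 37.3 against 5.59 and 5.59 CPM (adjusted p = 0.071). These 3 ligands were all higher in b-gal- replicate 2 than in replicate 1, and 5 of 10 members were at least 2-fold apart in that direction. The receptor tyrosine kinase Kit stood at 216 and 301 against 27.6 and 20.5 CPM and the gap junction gene Gja4 at 173 and 269 against 23.9 and 21.2 CPM. Wnt2 and Wnt9b were no longer called once either b-gal+ replicate or b-gal- replicate 2 was left out (p up to 0.171 after adjustment).

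Of 12 periportal and arterial endothelial genes 7 were called lower and 1 higher, with 5, 5, 5 and 6 lower and 0, 1, 1 and 0 higher without the 4 libraries in turn. The Notch ligand Dll4 stood at 209.9 and 194 CPM in the b-gal- gate and 28 and 15.7 CPM in the b-gal+ gate, the guidance factor Ntn4 at 248 and 221 against 35.5 and 20.9 CPM, and the transcription factor Sox17 at 98.7 and 106 against 13.8 and 7.60 CPM. Hey1, a target of Notch signalling, was the member that rose, from 5.64 and 1.71 to 33.6 and 17.7 CPM. The scavenger receptor Msr1, which macrophages express too, stood at 1014 and 866 against 786 and 600.2 CPM and was not called. Hey1 was no longer called once b-gal+ replicate 1 or b-gal- replicate 2 was left out (p up to 0.106 after adjustment). Lymphatic endothelial genes were mostly near 0, and their defining factor Prox1 stood at 1.25 and 1.25 against 1.80 and 1.57 CPM.

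**Figure D5:**
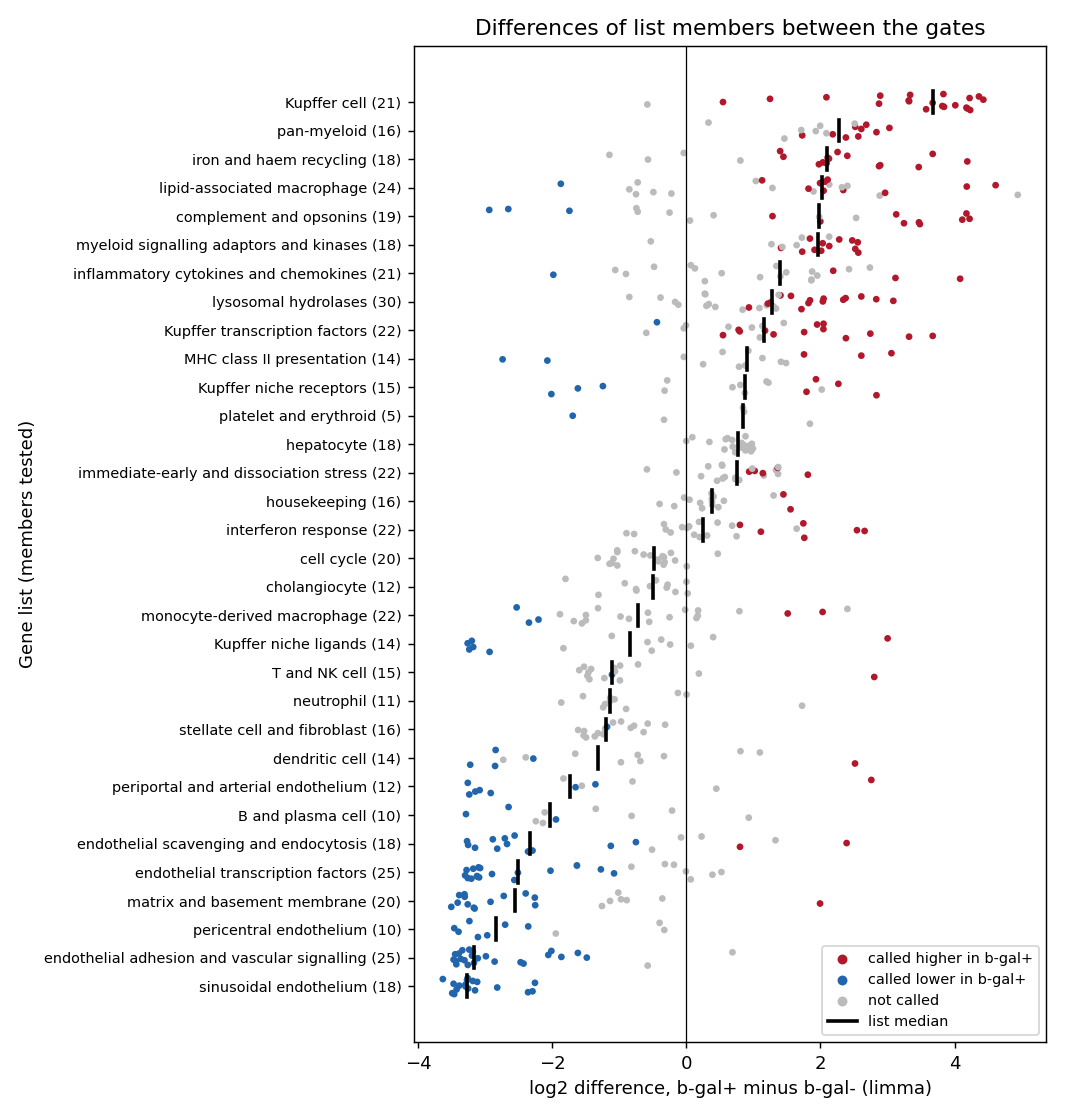
Fitted log2 difference (b-gal+ minus b-gal-) of each tested member of the 33 gene lists except the lymphatic endothelial one, ordered by list median. Red and blue points are genes called higher and lower, grey points are not called, and black bars are list medians. The Kupffer cell list is at the top with a median of 3.67, and the sinusoidal endothelial list is at the bottom with a median of -3.26 and a narrow range.

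Transcription factors followed the same division in part. Of 22 factors tied to the Kupffer cell program 13 were called higher and 1 lower, with a median of 1.15, and 4, 3, 11 and 4 were higher without the 4 libraries in turn. Nr1h3, the oxysterol receptor LXRα that holds Kupffer cell identity, stood at 459.6 and 457 CPM in the b-gal+ gate and 57 and 36.2 CPM in the b-gal- gate. Spic, the factor of iron-recycling macrophages, stood at 191 and 139 against 17.6 and 8.61 CPM. Rxra, the partner of LXRα, stood at 885 and 797 against 254 and 242 CPM. Irf8, which myeloid precursors need, stood at 293 and 394 against 183 and 137 CPM and Maf at 745 and 736 against 1042 and 1203 CPM, both not called. Smad4, which carries TGF-β and BMP signals in most cells, fell by 0.44. The median of 1.15 lay below the 2.28 of the pan-myeloid genes. Relative to the pan-myeloid mean the 22 factors had a median difference of -1.01. On that scale 4 were higher and 14 lower in both b-gal+ libraries, against 1.37% and 94.3% of all tested genes. Spic was no longer called once either b-gal+ replicate or b-gal- replicate 2 was left out (p up to 0.121 after adjustment). Smad4 was no longer called once any 1 of the 4 libraries was left out (p up to 0.243 after adjustment). Calls also ended with edgeR for Smad4 (0.0688), without the filter on low values for Smad4 (0.0682) and with DESeq2 size factors for Smad4 (0.0995).

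Of 25 endothelial transcription factors 17 were called lower and none higher, with a median of -2.51, and 16 were lower without each of the 4 libraries. Among ETS factors, Erg stood at 169.7 and 222 CPM in the b-gal- gate and 33.9 and 31 CPM in the b-gal+ gate and Ets1 at 1088 and 1284 against 186 and 135 CPM, while Fli1, which blood cells express too, stood at 96.3 and 85.4 against 89.9 and 100 CPM and was not called. Gata4, the factor that sets the sinusoidal fate of liver endothelium, stood at 389.7 and 515 against 61.1 and 43 CPM. The haematopoietic and endothelial factor Tal1 stood at 52.3 and 57.8 against 5.81 and 4.55 CPM, Meis2 at 199 and 264 against 26.7 and 20.2 CPM, and Sox7 at 70.5 and 113 against 9.39 and 9.05 CPM. Klf4, at 321 and 346 against 358 and 307 CPM, and the flow-responsive Klf2, at 606 and 715 against 952 and 941 CPM, were not called. 

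The signalling machinery split in the same way. Of 18 myeloid adaptors and kinases 12 were called higher and none lower, with a median of 1.96, and 2, 2, 8 and 2 without the 4 libraries in turn. The list shares members with the pan-myeloid list, Tyrobp and Fcer1g among them. Pik3ap1, an adaptor of PI3 kinase, stood at 307 and 305 CPM in the b-gal+ gate and 63.6 and 42 CPM in the b-gal- gate, and the exchange factor Vav1 at 348 and 374 against 90.2 and 46.1 CPM. Tyrobp, the adaptor of Trem2, stood at 804 and 706 against 205 and 78.9 CPM. Vav1 was no longer called once either b-gal+ replicate or b-gal- replicate 2 was left out (p up to 0.148 after adjustment). Tyrobp was no longer called once any 1 of the 4 libraries was left out (p up to 0.256 after adjustment). With other settings, calls ended with edgeR for Tyrobp (0.0713), without the filter on low values for Tyrobp (0.0617) and with the deposited scaling for Tyrobp (0.0576). Of 25 genes of endothelial adhesion and vascular signalling 23 were called lower and none higher, with a median of -3.16, and 22, 20, 21 and 20 without the 4 libraries in turn. The junction gene Jam2 stood at 649 and 669 CPM in the b-gal- gate and 81.1 and 45.5 CPM in the b-gal+ gate, the VEGF receptor Flt1 at 451 and 571 against 52.5 and 41.3 CPM, and the adhesion receptor Adgrl4 at 757 and 976 against 92 and 66.8 CPM. The 2 members not called were Cdh5, the cadherin of endothelial junctions, at 1372 and 1468 against 1142 and 794 CPM, and the BMP receptor Acvrl1, at 106 and 93.4 against 167 and 155 CPM. Cdh5 thus differed by -0.58, against -3.26 for the median of the sinusoidal genes.

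Ligands and receptors by which niche cells and Kupffer cells signal to each other were read next. Of 14 niche ligands 5 were called lower and 1 higher in the b-gal+ gate, with 6, 5, 5 and 5 lower and 1 higher each time without the 4 libraries in turn. Csf1, the growth factor of macrophages, stood at 201 and 299 CPM in the b-gal- gate and 34 and 29.6 CPM in the b-gal+ gate, the Notch ligand Dll1 at 26.9 and 50.1 against 4.11 and 3.18 CPM, and the BMP ligands Bmp2 and Bmp6 at 1107 and 1695 against 155 and 131 CPM and 119 and 197 against 15.5 and 17 CPM. Vcam1, an adhesion molecule of endothelium and of Kupffer cells, went the other way, with 1482 and 1044 CPM in the b-gal+ gate and 182 and 132 CPM in the b-gal- gate. Of 15 niche receptors 4 were called higher and 3 lower, against 10.4% and 13% of all tested genes, and without the 4 libraries in turn 1, 0, 4 and 0 were higher and 3 lower each time. Besides Csf1r, Tgfbr1, a TGF-β receptor, rose from 147 and 101 to 349 and 510.4 CPM and the integrin chain Itgal from 359.9 and 208 to 1424 and 1222 CPM. Notch1 fell by 2.01, from 464 and 542 to 133 and 116 CPM, and Bmpr2 by 1.62, from 420.3 and 426 to 144 and 132 CPM, while Notch2 stood at 169 and 167 against 135 and 61.8 CPM and was not called. Tgfbr1 was no longer called once b-gal+ replicate 2 or b-gal- replicate 2 was left out (p up to 0.0570 after adjustment). Itgal was no longer called once any 1 of the 4 libraries was left out (p up to 0.184 after adjustment).

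Matrix genes were mostly on the endothelial side. Of 20 matrix and basement membrane genes 13 were called lower and 1 higher, with a median of -2.56, and 16, 11, 10 and 10 were lower without the 4 libraries in turn. Hspg2, the proteoglycan perlecan, stood at 1765 and 2090.5 CPM in the b-gal- gate and 234 and 139 CPM in the b-gal+ gate, the laminin chain Lama4 at 320.1 and 297 against 39.4 and 18.1 CPM and the collagen IV gene Col4a1 at 1632 and 1322 against 278 and 97.1 CPM. Nid2, a nidogen, was the member that rose, with 163 and 96 CPM in the b-gal+ gate and 31.5 and 30.6 CPM in the b-gal- gate, while its relative Nid1 fell from 787 and 676 to 122 and 47.2 CPM. The summed matrix level was 2.21-fold higher in b-gal+ replicate 1 than in replicate 2, where the stellate cell and fibroblast sum was 5.57-fold higher; the part of that sum in these levels was not tested. 

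Scavenging genes were divided between the gates. Of 18 endothelial scavenging and endocytosis genes 12 were called lower and 2 higher, with a median of -2.33, and without the 4 libraries in turn 8, 6, 10 and 7 were lower and 0, 1, 1 and 0 higher. The inhibitory IgG receptor Fcgr2b, which sinusoidal endothelium uses to clear immune complexes, stood at 1759.8 and 2058 CPM in the b-gal- gate and 289.9 and 251 CPM in the b-gal+ gate, and the recycling ATPase Ehd3 at 2433 and 3598 against 324 and 290.0 CPM. Lrp1, a lipoprotein and haemopexin receptor, rose from 1164 and 456 to 4401 and 3316 CPM, and the HDL receptor Scarb1 from 224 and 218 to 429 and 346 CPM. Mrc1, the mannose receptor that both cell types carry, stood at 1948 and 1749 against 2466 and 2804 CPM and was not called (adjusted p = 0.45). Lrp1 was no longer called once either b-gal+ replicate or b-gal- replicate 2 was left out (p up to 0.176 after adjustment). Scarb1 was no longer called once either b-gal- replicate or b-gal+ replicate 1 was left out (p up to 0.128 after adjustment).

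Iron recycling, by which Kupffer cells return the iron of red cells, was higher in the b-gal+ gate. Of 18 tested genes 14 were called higher and none lower, with a median of 2.10, and 10, 10, 13 and 6 without the 4 libraries in turn. Hmox1, which opens the haem ring, stood at 2796 and 1378 CPM in the b-gal+ gate and 242 and 130.2 CPM in the b-gal- gate, the haem transporter Slc48a1 at 409.6 and 278 against 89.7 and 81.1 CPM and the biliverdin reductase Blvrb at 227 and 177 against 54.9 and 42.9 CPM. The ferritin chains Fth1 and Ftl1 stood at 2294 and 2119 against 725 and 351 CPM and 710.0 and 675 against 177 and 145 CPM. Haptoglobin, Hp, a product of hepatocytes and neutrophils, stood at 199 and 25.1 against 309 and 35.9 CPM, high in replicate 1 of each gate, and was not called. Relative to the pan-myeloid mean, 5 of the 18 genes were higher and 6 lower in both b-gal+ libraries, against 1.37% and 94.3% of all tested genes, with a median relative difference of -0.06. Hmox1 was no longer called once b-gal+ replicate 1 or b-gal- replicate 2 was left out (p up to 0.0992 after adjustment). Fth1 was no longer called once either b-gal+ replicate or b-gal- replicate 2 was left out (p up to 0.0944 after adjustment).

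Complement genes split into components and regulators. Of 19 tested genes 9 were called higher and 3 lower, with a median of 1.98, and 1, 1, 4 and 2 were higher without the 4 libraries in turn. The 3 chains of C1q, which starts the classical pathway and is made by macrophages, stood at 2514 and 2939 against 296 and 199 CPM for C1qa, 3397 and 3804 against 512 and 280.1 CPM for C1qb and 2840.3 and 2899 against 325 and 206 CPM for C1qc. The classical component C4b stood at 1532 and 1281 against 93.6 and 69.1 CPM and the terminal component C6 at 1029 and 956 against 53.3 and 52 CPM. The membrane regulators Cd55 and Cd59a, which shield cells from complement, fell by 2.94 and 2.65, with 541 and 582 CPM and 124 and 109 CPM in the b-gal- gate. C3, the central component, stood at 263 and 158 against 396 and 96.9 CPM and was not called. C1qa, C1qb, C1qc and C6 were no longer called once any 1 of the 4 libraries was left out (p up to 0.171 after adjustment). Further calls ended with edgeR for C6 (0.0639) and without the filter on low values for C6 (0.0586).

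Lysosomal hydrolases rose in part. Of 30 tested genes 15 were called higher and none lower, with a median of 1.28, and 3, 5, 12 and 2 without the 4 libraries in turn. The phosphatase Acp5 stood at 659 and 746 CPM in the b-gal+ gate and 101 and 67 CPM in the b-gal- gate, the dipeptidase Ctsc at 2401 and 1779.7 against 461 and 182 CPM, and the neuraminidase Neu1, which sits in a complex with the lysosomal β-galactosidase, at 159 and 159.7 against 71.7 and 64.9 CPM. Glb1, the gene of that β-galactosidase, stood at 136 and 80.9 against 68.5 and 49.7 CPM without overlap, and its difference of 0.84 was not called (adjusted p = 0.077). Cathepsin L, Ctsl, which endothelium expresses as well, stood at 691 and 439 against 1072 and 921 CPM and was not called. Relative to the pan-myeloid mean the list had a median difference of -0.88. On this scale 22 of the 30 genes were lower and 4 higher in both b-gal+ libraries, against 94.3% and 1.37% of all tested genes. Glb1 stood at -2.77 and -3.50 in b-gal+ and -2.15 and -1.49 in the b-gal- gate. An equal CPM in all libraries would also read lower in b-gal+ on this scale, so these values show no fall of Glb1. Acp5 was no longer called once b-gal- replicate 2 was left out (p up to 0.0536 after adjustment). Ctsc was no longer called once either b-gal+ replicate or b-gal- replicate 2 was left out (p up to 0.150 after adjustment).

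Immune response genes were called in part. Of 21 cytokines and chemokines 3 were called higher and 1 lower, a share near the 10.4% and 13% of all tested genes, with a median of 1.40. Without the 4 libraries in turn 2, 2, 3 and 2 were higher and 2, 1, 2 and 1 lower, while DESeq2 called 9 higher. The anti-inflammatory cytokine Il10 stood at 92.4 and 87.8 CPM in the b-gal+ gate and 4.95 and 4.75 CPM in the b-gal- gate and Il18 at 70.9 and 59 against 9.41 and 5.19 CPM, while Cxcl9, a chemokine for T cells, stood at 19.7 and 20.9 against 68.7 and 97 CPM and fell. Tnf, at 109 and 77.3 against 71.2 and 25.3 CPM, and Il1b, at 1099 and 1007 against 479 and 174 CPM, were not called. Of 22 interferon response genes 6 were called higher, against 10.4% of all tested genes, and none lower, with a median of 0.25, and 6, 2, 3 and 2 were higher without the 4 libraries in turn. The antiviral sensor Oas2 stood at 176 and 337 against 37.3 and 38.9 CPM and the regulator Irf7 at 232 and 382 against 75.8 and 101 CPM. 

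Genes of antigen presentation by MHC class II varied within the b-gal+ gate. Of 14 tested genes 3 were called higher and 2 lower, against 10.4% and 13% of all tested genes, with a median of 0.90. Without the 4 libraries in turn 0, 0, 1 and 0 were higher and 0, 1, 2 and 0 lower. The invariant chain Cd74 stood at 1988 and 6469 CPM in the b-gal+ gate and 1712 and 1557 CPM in the b-gal- gate, and the class II chain H2-Aa at 539 and 2056 against 663 and 562 CPM, with b-gal+ replicate 2 above the other 3 libraries in both. The co-stimulatory ligand Cd86 rose from 26 and 15.9 to 161 and 187 CPM. H2-Ob, a chain of the B cell regulator of peptide loading, fell by 2.74, from 13.3 and 29 to 2.10 and 3.02 CPM, and 3 of 10 tested B and plasma cell genes were also called lower, against 13% of all tested genes, with a list sum of 27.1 and 32.6 CPM in the b-gal+ gate and 70.3 and 99.1 CPM in the b-gal- gate. Without the 4 libraries in turn 2, 1, 2 and 2 were called lower, while DESeq2 called 7 and the deposited scaling gave 6. Among those called lower, Blk, a kinase of B cells, stood at 8.99 and 12.7 against 1.21 and 1.37 CPM, and Jchain, which joins secreted antibodies, at 18.5 and 39.4 against 2.33 and 2.33 CPM. The part of B cells in the fall of H2-Ob was not tested. Cd86 was no longer called once any 1 of the 4 libraries was left out (p up to 0.143 after adjustment). H2-Ob was no longer called once b-gal+ replicate 1 or b-gal- replicate 2 was left out (p up to 0.0603 after adjustment). Blk was no longer called once b-gal+ replicate 2 or b-gal- replicate 2 was left out (p up to 0.0655 after adjustment).

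Proliferation and stress genes were read as a check on the state of the cells. Of 20 cell cycle genes 0 were called by limma, edgeR or DESeq2 and 0 had an unadjusted p under 0.05, with a median of -0.48, and the proliferation antigen Mki67 stood at 64.9 and 38.5 CPM in the b-gal+ gate and 73 and 33.8 CPM in the b-gal- gate. Of 22 immediate-early and dissociation stress genes 5 were called higher, against 10.4% of all tested genes, with a median of 0.76, and 1, 1, 1 and 0 without the 4 libraries in turn. Btg2 stood at 800.0 and 818 against 325 and 304 CPM and the phosphatase Dusp1 at 2715 and 3029 against 1386 and 1441 CPM, while Fos, at 2750.2 and 2561 against 1964 and 1899 CPM, and Hspa1a, at 329.8 and 206 against 163 and 62 CPM, were not called. Of 16 housekeeping genes 2 were called higher, and 1 without each of the 4 libraries, with a median of 0.38: Actb, at 3701 and 3232 against 1414 and 979.9 CPM, and the transferrin receptor Tfrc, at 56.7 and 47.3 against 22.9 and 15.2 CPM. Gapdh stood at 1.39 and 2.90 against 1.46 and 1.86 CPM, a low level for a gene with many near-identical copies; how shared reads were counted is not given in the sources used here, so such genes are uncertain. Btg2 was no longer called once b-gal- replicate 2 was left out (p up to 0.0578 after adjustment). Dusp1 and Actb were no longer called once any 1 of the 4 libraries was left out (p up to 0.248 after adjustment). Calls also ended with edgeR for Dusp1 and Actb (up to 0.0712), without the filter on low values for Dusp1 and Actb (up to 0.0722), with the deposited scaling for Dusp1 and Actb (up to 0.0640) and in a fit of the 4 libraries alone for Dusp1 (0.0794).

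Markers of further cell types were read for what else the gates held. Hepatocyte genes summed to 396 and 840.1 CPM in the b-gal+ gate and 236 and 483 CPM in the b-gal- gate, and limma and edgeR called 0 of 18 and DESeq2 1, with 1 at an unadjusted p under 0.05. Stellate cell and fibroblast genes summed to 1059 and 190.1 against 1331 and 903 CPM, with 1 of 16 called, the pericyte gene Rgs5 (lower), but 7 called lower without b-gal+ replicate 1 and none without any 1 of the other 3. Cholangiocyte genes could not be judged, since 8 of 12 averaged under 1 CPM in both gates, and Epcam stood at 0 and 0.362 against 0.845 and 1.47 CPM. T and NK cell genes summed to 40.9 and 62.8 against 18.5 and 58 CPM, although their median difference was -1.11. Most of the b-gal+ sum was the member Cd4, which Kupffer cells can also express. Cd4 rose from 3.46 and 7.24 to 31.7 and 45.8 CPM, while Cd3e stood at 0.403 and 0.402 against 0.768 and 4.26 CPM. Of 14 dendritic cell genes 4 were called lower and 1 higher, with 3, 1, 4 and 1 lower and 1, 0, 0 and 0 higher without the 4 libraries in turn: Zbtb46, which endothelium shares, fell from 67.4 and 83.4 to 9.21 and 6.23 CPM, and Batf3 rose from 5.64 and 6.75 to 30.6 and 46.3 CPM. Platelet and erythroid genes were not informative, since 4 of their 10 members had 0 reads in all 4 libraries, the haemoglobin genes among them. Rgs5 and Batf3 were no longer called once either b-gal- replicate or b-gal+ replicate 2 was left out (p up to 0.221 after adjustment). Cd4 was no longer called once b-gal+ replicate 2 was left out (p up to 0.0578 after adjustment). With other settings, calls ended with edgeR for Rgs5 (0.0583), without the filter on low values for Rgs5 (0.0586), with DESeq2 size factors for Rgs5 (0.0535) and in a fit of the 4 libraries alone for Rgs5 (0.0555).

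The genes with the most extreme differences, among called genes averaging 20 CPM or more, repeat this division and add genes outside the lists. The 20 highest had differences between 3.91 and 4.61, and the next 2 in rank, Slc45a3 (3.91) and Kcna2 (3.89), lay just below them. Ficolin A, Fcna, a lectin that starts the complement cascade, stood at 2854 and 2521 CPM in the b-gal+ gate and 151 and 172 CPM in the b-gal- gate. The stress cytokine Gdf15 stood at 29 and 34.2 against 2.00 and 0.489 CPM, the potassium channel Kcnj16 at 118 and 134 against 6.45 and 8.02 CPM and the chemokine Cxcl13, which attracts B cells, at 54.9 and 49.7 against 3.57 and 2.45 CPM. The imprinted long non-coding RNA Meg3 stood at 406 and 206 against 17.3 and 20.4 CPM and the proton pump subunit Atp6v0d2 at 27.8 and 70.6 against 4.03 and 0.245 CPM. Gdf15 was no longer called once either b-gal+ replicate or b-gal- replicate 2 was left out (p up to 0.0726 after adjustment). Atp6v0d2 was no longer called once b-gal+ replicate 2 was left out (p up to 0.0797 after adjustment).

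The 20 lowest had differences between -3.63 and -3.42, and the next 2 were Hmcn1 (-3.42) and Hspg2 (-3.41). The lower edge was thus narrow, while the highest genes were spread over a wider range. The cadherin Fat4 stood at 217 and 206 CPM in the b-gal- gate and 22 and 13.4 CPM in the b-gal+ gate, the peptidase Dpp4 at 826 and 1081 against 100 and 73.7 CPM and the sialomucin Podxl at 527 and 665 against 62.3 and 47 CPM. The protocadherin Pcdh17 stood at 272 and 145 against 29.4 and 9.57 CPM, the adhesion protein Adam23 at 1179 and 1156 against 142 and 81.9 CPM and the semaphorin Sema6a at 368 and 374 against 44.8 and 25.6 CPM. Pcdh17 was no longer called once b-gal+ replicate 2 was left out (p up to 0.0518 after adjustment).

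By level per kilobase of exon, the gates were led by different genes. In the b-gal+ gate Apoe (9964 CPM per kb), Cd5l (3811), Clec4f (3798), C1qb (3309) and Lyz2 (2976) came first. In the b-gal- gate the water channel Aqp1 (2102 CPM per kb) came first, followed by Apoe (1992), the secreted endothelial protein Igfbp7 (1703), the MHC class I light chain B2m (1702) and Cd74 (973). Aqp1 and Igfbp7 fell in the b-gal+ gate by 3.39 and 3.02, whereas B2m stood at 1611 and 1739.5 against 1268 and 1659 CPM and was not called. The b-gal- gate therefore held endothelial transcripts at its top together with Apoe and Cd74. Both of the latter were also high in other cells of the series. Apoe stood at 28867 and 44247 CPM in the hepatocyte libraries, and Cd74 at 6547.5 and 2648.1 CPM in the EpCAM-positive libraries.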

How the data were processed

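RNA of sorted liver cells was sequenced in bulk. The submitters' processing notes name HTSeq and GRCm38.p4 (mm10); the aligner, the annotation and the scaling are not given in the sources used here. Per the file headers and values, hepatocyte replicate 1 holds counts per gene symbol, and the authors deposited the other 7 files in another unit, counts multiplied by 1 factor per library and written with decimal commas. Dividing by the smallest step gave whole reads for 100% of values within 0.01. The 14 rows with only digits for a symbol (0.0973% to 0.167% of the reads in the 4 libraries) were left out.

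Reads were scaled with TMM (edgeR 4.0.16), and genes that passed edgeR's default filter (14404) were tested with limma 3.58.1 (trend, two-sided) on log2(CPM + 0.5) over 8 libraries and 4 groups, with 4 residual degrees of freedom. Differences of low genes are understated on this scale. Alternatives were edgeR's quasi-likelihood test, DESeq2 1.42.0, a pseudocount of 2, no filter, 2 other scalings, the 4 libraries alone, a replicate block and leaving out each library. A planned test on levels relative to pan-myeloid genes was not used, because the offset gave all genes 1 spread. Of 580 entries in 33 gene lists 574 matched a symbol. Members and lists were chosen with earlier results of these data known. Named are the marker and check genes, the 20 called genes at each end (mean of at least 20 CPM, no overlap), up to 4 called members per list (at least 10 CPM), the 15 most abundant genes per kb in each gate, and further list members chosen after their values were seen. Positions are from GENCODE M21, promoters from RefSeq. Simulated counts, used to check the test, gave 3 false calls among 14204 unchanged genes.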

Additional observations from a re-analysis of the deposited data

How the results depend on the processing

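The main counts were 1491 genes higher and 1867 lower. edgeR gave 1239 and 1736, a pseudocount of 2 gave 1477 and 1808, no filter gave 1450 and 1730, and DESeq2 size factors gave 1797 and 1701. DESeq2 gave 2304 and 2052. The scaling of the deposited values gave 1111 and 2304, which moved the share of higher calls from 44.4% to 32.5%. The 4 F4/80high libraries alone gave 2036 and 2185 genes, with 2 residual degrees of freedom. Leaving out 1 library gave 368 to 874 higher and 908 to 1291 lower genes; the lone library is then assumed to vary like the other groups. Of 124 called genes named by rule, 65 kept their call under every alternative run and 59 lost it without at least 1 of the 4 libraries; none reversed. The uncalled differences of LacZ (-0.0515 to 0.35), Lgr5 (-0.12 to 0.36) and Mir6236 (-0.19 to 0.74) changed sign without 1 of the b-gal+ libraries. The replicate numbers give only 2 pairs and the labels tie them to no shared mice, although deviations of same-numbered libraries correlated across genes (0.49 for the 2 gates, 0.18 to 0.47 for the other pairs of groups). With the replicate block 1899 genes were higher and 2162 lower, and Ccr2 (adjusted p = 0.0088), Trem2 (0.041), Adgre1 (0.026) and Glb1 (0.024) passed. With it 5 monocyte-derived genes (3 without it), 5 cell cycle genes (0) and 2 interferon response genes (0) were lower, and 8 cytokines and chemokines (3) were higher. The alternatives of the test relative to pan-myeloid genes were not run, since that test was not used. With 2 pools of mice a gate, changes under 4-fold are often missed.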
